A study of Mus musculus with 20 samples.

Results

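The 10 genes described here encode transcription factors of 4 families and were followed in Hepa-1, a mouse hepatoma cell line, after the cells met benzo[a]pyrene (B[a]P), a combustion product that binds the aryl hydrocarbon receptor and whose metabolites bind DNA. Of these, 5 (Sox5, Pknox2, Foxp1, Trp63 and Sox9) were chosen for lower read counts after B[a]P, with results of the whole series known. The other 5, Sox6, Sox4, Pknox1, Foxp4 and Trp73, are relatives taken for contrast. The 10 rows were found by Entrez gene ID among 23373 rows of the count table. Of the 10 members, 8 passed the filter on low counts and were tested among 14343 genes, while Sox6 and Trp73 did not pass it.

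RNA-seq counts came from 20 libraries, 2 in each of 10 groups. Cells had grown without added metal (control-grown) or with hexavalent chromium, Cr(VI), up to passage 20 or 25, and recovered cells of passage 25 had left Cr(VI) after 20 passages and grown another 5 in plain medium. Each was given the solvent DMSO or B[a]P for 8 hours. Doses are labelled as 0.5 mM (Cr(VI)) and 5 mM (B[a]P), although the title of the series speaks of low concentrations, and they entered no computation. All groups are Hepa-1 cells in a medium with 5% serum, passaged every 3 days, and a hepatoma line is a limited model of liver tissue. The labels do not say whether the 2 libraries of a group came from separate cultures, so p-values measure the spread between these libraries, which may be technical.

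SOX proteins bind DNA through an HMG box. SOX5 and SOX6, the SoxD pair, lack an activation domain of their own and act with SOX9, a SoxE factor that drives cartilage, bile duct and testis programmes and marks progenitor-like cells in liver. SOX4 is a SoxC factor of progenitor and tumour cells. PKNOX1 and PKNOX2 (also called PREP1 and PREP2) are homeodomain proteins of the TALE class that bind DNA with PBX partners, FOXP1 and FOXP4 are forkhead repressors that pair through a leucine zipper, and the genes Trp63 and Trp73 encode p63 and p73, relatives of the tumour suppressor p53, of which p63 is a master regulator of stratified epithelium.

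The members differ in how much genome they span (RefSeq, GRCm38.p6). Sox5 covers 953.9 kb at chr6:143828425-144782287, Foxp1 597.4 kb at chr6:98925342-99522746, Pknox2 256.4 kb at chr9:36890979-37147342 and Trp63 208.3 kb at chr16:25683763-25892088. Sox9 is the exception among the chosen genes, with 5.5 kb at chr11:112782210-112787757. Among the relatives, Sox6 covers 569.9 kb (chr7:115470872-116040776), Trp73 83.6 kb (chr4:154056249-154139875), Foxp4 57.5 kb (chr17:47867133-47924632), Pknox1 43.0 kb (chr17:31564722-31607693) and Sox4 4.8 kb (chr13:28948919-28953699). Sox5os3, which had at most 2 counts in a library, was the sole gene of the count table that overlapped a member. No word of 50 bases was shared between the annotated transcripts of any of the 10 members, so a read of that length from 1 of them has no exact match in another.

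Promoter sequences are shown because B[a]P acts through a receptor that binds DNA at the core GCGTG, here searched on both strands and set in capitals (CACGC on the reverse strand). Windows run from 250 bases before to 50 bases after an annotated start, 5′ to 3′ along the gene, from RefSeq GRCm38.p6, and all 4 lie on the minus strand. The first pair belongs to genes chosen for a fall, Sox5 at chr6:143947057-143947356, an internal start 835.2 kb from the gene's 5′ end, and Foxp1 at chr6:99028249-99028548, an internal start 494.4 kb from it. The second pair belongs to relatives, Sox4 at chr13:28953650-28953949 and Foxp4 at chr17:47924583-47924882.
Sox5: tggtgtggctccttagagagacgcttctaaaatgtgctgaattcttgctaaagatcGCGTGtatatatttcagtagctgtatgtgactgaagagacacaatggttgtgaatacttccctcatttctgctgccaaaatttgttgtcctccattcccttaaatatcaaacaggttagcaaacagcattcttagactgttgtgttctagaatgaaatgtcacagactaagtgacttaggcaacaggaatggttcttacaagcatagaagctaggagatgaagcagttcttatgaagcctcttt
Foxp1: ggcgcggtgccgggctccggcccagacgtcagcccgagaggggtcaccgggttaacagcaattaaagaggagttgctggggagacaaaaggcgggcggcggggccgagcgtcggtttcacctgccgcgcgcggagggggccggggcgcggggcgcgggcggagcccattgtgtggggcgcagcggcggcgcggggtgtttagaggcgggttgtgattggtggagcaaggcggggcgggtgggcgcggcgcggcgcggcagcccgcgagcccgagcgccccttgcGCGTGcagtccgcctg
Sox4: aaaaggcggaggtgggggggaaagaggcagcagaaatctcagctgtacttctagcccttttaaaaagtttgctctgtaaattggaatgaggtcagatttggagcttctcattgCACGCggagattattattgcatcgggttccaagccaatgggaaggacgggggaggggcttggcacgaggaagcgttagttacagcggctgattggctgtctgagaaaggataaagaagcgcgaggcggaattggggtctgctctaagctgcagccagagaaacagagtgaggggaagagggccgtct
Foxp4: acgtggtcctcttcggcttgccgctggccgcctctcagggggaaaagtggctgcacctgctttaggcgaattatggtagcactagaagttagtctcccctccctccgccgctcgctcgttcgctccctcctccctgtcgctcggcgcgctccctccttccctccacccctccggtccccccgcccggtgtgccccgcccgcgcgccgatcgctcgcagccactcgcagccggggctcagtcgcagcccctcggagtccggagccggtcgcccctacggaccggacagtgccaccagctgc
One core each was found for Sox5, Foxp1 and Sox4 and 0 for Foxp4, and the Sox5 core also matches the longer form TNGCGTG, which contains it. Another 2 windows of Foxp1 hold 0 cores, 1 of the 6 windows of Sox6 holds 1, and so does 1 of the 2 of Trp73. Of all 32851 promoter windows of this length, 32.4% hold the core and 5.07% the longer form, so a match is common. A match is a description of letters and not a binding site. Sox9, Pknox2, Trp63 and Pknox1 had no entry.

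Total counts per library ran from 20976045 to 37930720. The 6 libraries of passage 25 labelled replicate 2 stood apart: they had 14776 to 15329 genes with a count, against 16049 to 17173 in replicate 1 of that passage and 16350 to 17278 at passage 20, and their top 100 genes held 29.6% to 34.3% of all reads counted, where the other sets had 15.7% to 26.0% and 16.7% to 25.4%. Results are also given without these 6 libraries, or with the replicate number as a block, where that changes them, although the numbers paired the libraries of passage 25 and not those of passage 20. The 2 control-grown DMSO libraries of passage 20 were the most alike, with a chi-square per degree of freedom of 2.86 over genes with at least 50 counts, against 15.7 to 934 in the other 9 groups, and were kept as 2 samples because they differed by more than counting noise. The receptor target Cyp1a1 had 25.1 to 62.4 CPM (reads scaled for library size) in the 10 DMSO libraries and 930 to 2089 CPM in the 10 B[a]P libraries, so treatment and label matched throughout. Of the liver markers, Alb and Afp were read in every library (at least 826 and 102 CPM), whereas Hnf4a stayed at or below 0.394 CPM and Apoa1 and Ahsg below 10 counts. The summed level of the 10 hepatocyte markers ran from 2053 to 7253 CPM under DMSO and from 1642 to 8781 CPM after B[a]P. The 4 markers of basal squamous epithelium, the tissue in which p63 is best known, summed to 0.800 to 8.13 CPM and 1.62 to 9.91 CPM. Fewer cells that express a gene and less RNA per cell cannot be told apart in these bulk counts.

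The genes chosen for a fall were lower after B[a]P in all 10 pairs of libraries with the same group history and number, yet none of them was silent. The numbers did not pair the libraries of passage 20, and the share of all tested genes lower in all 10 pairs was not counted. Sox5, Pknox2, Foxp1 and Trp63 kept from 1 to 266 counts per library after B[a]P, and Sox9 kept 625 or more. Their pattern is shown in the plot of levels by library.

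**Figure D1:**
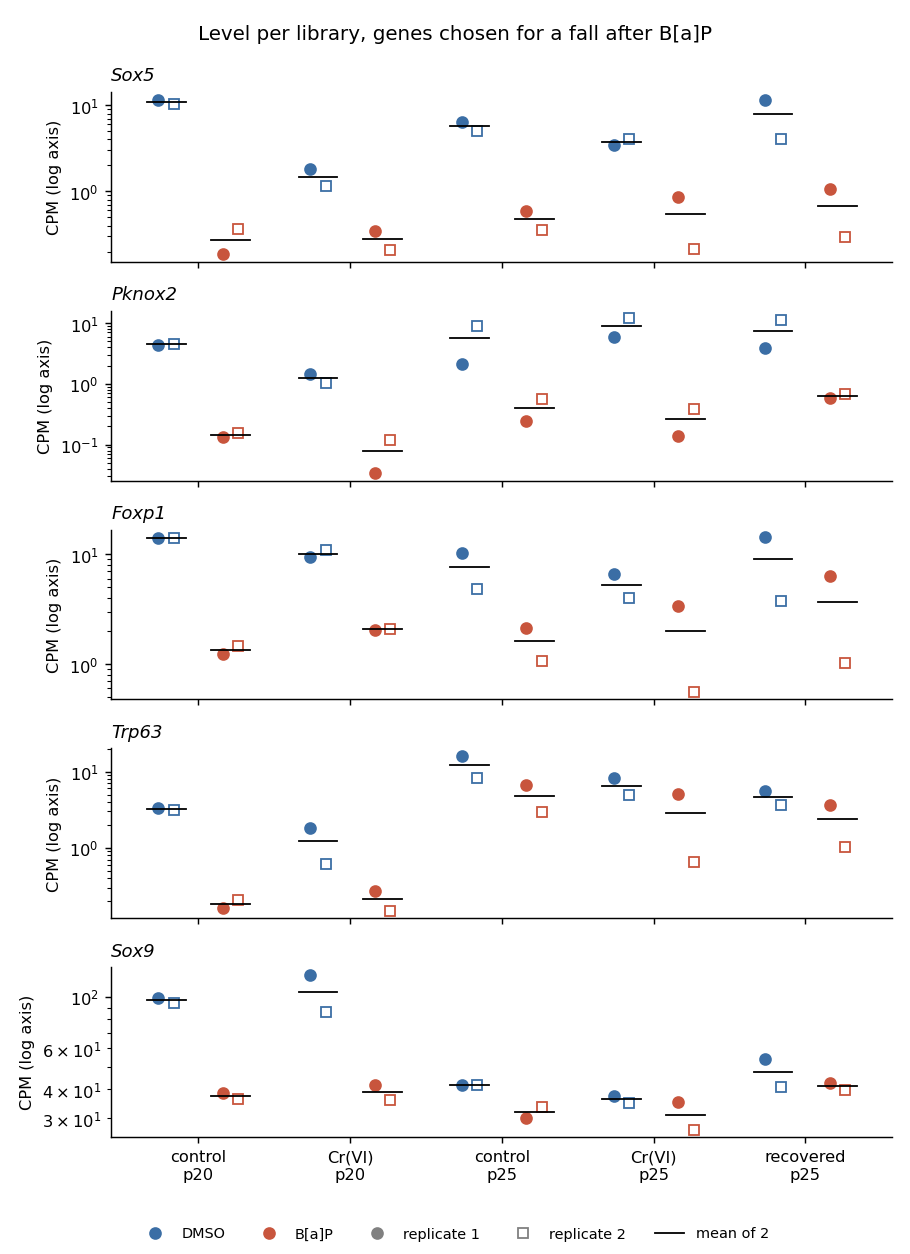
Level of each gene chosen for a fall after B[a]P, in CPM on a log axis, by growth history and passage (p20, p25), with DMSO in blue, B[a]P in red, filled circles for replicate 1, open squares for replicate 2 and lines for the mean of 2. Sox5 lies between 1.16 and 11.6 CPM under DMSO and between 0.188 and 1.06 CPM after B[a]P, whereas Sox9 at passage 25 stays between 26.9 and 54.1 CPM under both.

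In control-grown cells under DMSO Sox5 stood at 11.6 and 10.3 CPM (passage 20) and 6.41 and 4.97 CPM (passage 25). After B[a]P it stood at 0.188 and 0.361 CPM and at 0.597 and 0.356 CPM, with 7 to 24 counts behind each value. Pknox2 went from 4.38 and 4.54 CPM to 0.134 and 0.155 CPM at passage 20. At passage 25 Pknox2 went from 2.14 and 9.09 CPM to 0.249 and 0.554 CPM, with the higher value in replicate 2 under both treatments.
Foxp1 was at 14.2 and 13.9 CPM and then 1.23 and 1.47 CPM at passage 20, and at 10.4 and 4.80 CPM and then 2.14 and 1.07 CPM at passage 25. Trp63 was at 3.35 and 3.16 CPM and then 0.161 and 0.206 CPM at passage 20, and at 15.9 and 8.18 CPM and then 6.61 and 2.97 CPM at passage 25. Sox9 was at 99.3 and 93.8 CPM and then 38.4 and 36.4 CPM at passage 20, and at 41.8 and 42.0 CPM and then 30.1 and 33.7 CPM at passage 25. The DMSO and B[a]P libraries of each passage did not overlap for any of the 5, which were chosen for a fall. How many of all tested genes were as separate was not counted, here or in the comparisons that follow.

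The 5 genes were selected on this contrast, so their fitted changes over both passages are given as a description. On the log2 scale they were -4.42 ± 0.55 (SE) for Sox5, -4.36 ± 0.60 for Pknox2, -2.80 ± 0.65 for Foxp1, -2.72 ± 0.64 for Trp63 and -0.88 ± 0.19 for Sox9, from edgeR with 2 libraries per group. In the same contrast 2.2% of the tested genes passed at an adjusted p under 0.05, and 16.7% with a replicate block, shares that describe the contrast and are not read against the 5 genes.

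Over both passages the 3 tested relatives had smaller fitted differences in control-grown cells than the chosen genes, though Pknox1 was close to Sox9. This order follows in part from the choice of the 5 genes for a fall, and is a description. At passage 25 alone the log2 difference was -0.80 ± 0.30 (SE) for Pknox1 and -0.39 ± 0.27 for Sox9. The differences of Sox4 changed direction between passages. Pknox1 was at 13.7 and 14.0 CPM under DMSO and 9.03 and 8.12 CPM after B[a]P at passage 20, and at 10.2 and 12.7 CPM against 6.54 and 6.65 CPM at passage 25. Foxp4 was at 158 CPM in both DMSO libraries and 111 and 101 CPM after B[a]P at passage 20. At passage 25 Foxp4 overlapped, with 191 and 344 CPM against 198 and 290 CPM. Sox4 was at 104 and 106 CPM against 92.9 and 83.5 CPM at passage 20, and at 73.3 and 33.8 CPM against 140 and 52.6 CPM at passage 25, a lower level after B[a]P at the first passage and a higher one within each replicate number at the second. Fitted log2 differences were -0.75 ± 0.21 (SE) for Pknox1, -0.35 ± 0.32 for Foxp4 and 0.30 ± 0.66 for Sox4. Pknox1 passed with a replicate block (edgeR adjusted p = 0.00599, and 0.0985 without it), beside 16.7% of all tested genes. Foxp4 and Sox4 passed neither fit.

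**Figure D2:**
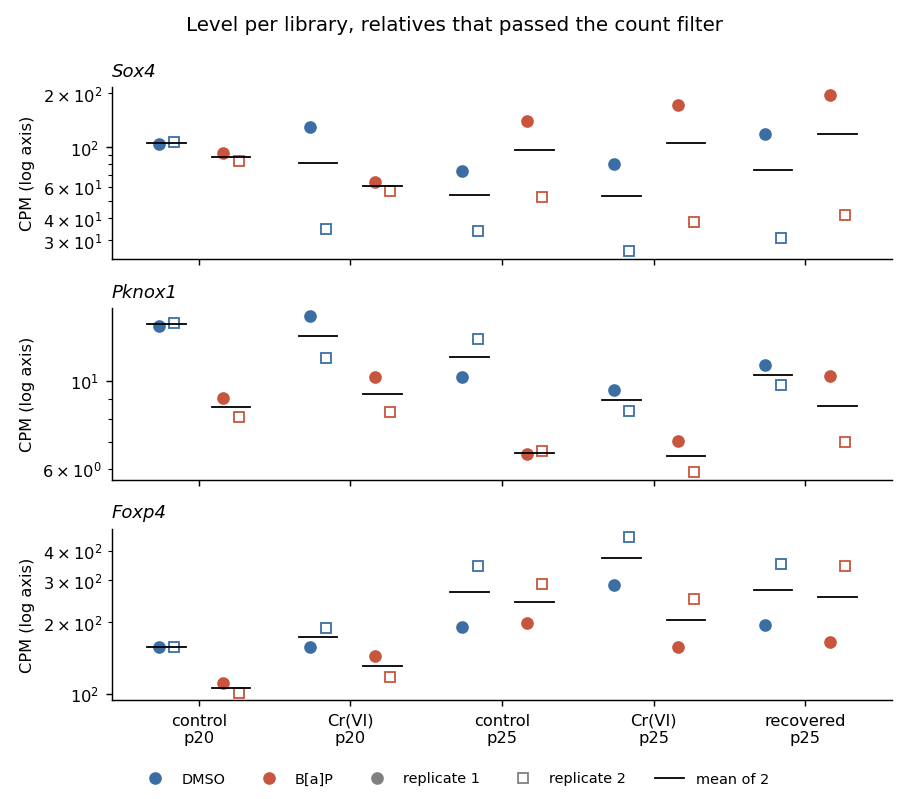
Level of the 3 relatives that passed the count filter, in CPM on a log axis, by growth history and passage, with the same symbols for treatment and replicate number and lines for the mean of 2. Sox4 at passage 25 separates by replicate number (73.3 to 195 CPM in replicate 1, 26.1 to 52.6 CPM in replicate 2) more than by treatment.

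Sox6, the SoxD partner of SOX5, and Trp73 were near the limit of detection. Sox6 had 1 to 9 counts under DMSO (median 3.5) and 0 to 7 after B[a]P (median 1.5), and was lower after B[a]P in 8 of the 9 pairs with a count in both libraries (median log2 -0.90). Among the 8 are replicate 2 of Cr(VI)-grown cells at passage 20 (1 count in each library) and at passage 25 (2 in each). Those pairs were lower through library scaling alone, so no fall of Sox6 is read from these counts. Trp73 had 0 counts in 8 of 10 DMSO libraries and 7 of 10 B[a]P libraries, and at most 3 elsewhere. A count of 0 allows up to 3 counts, or 0.0686 to 0.183 CPM in these libraries, counting error alone. Neither gene was tested, and Trp73 shows no difference that could be detected at this depth.

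The same genes were read after B[a]P in Cr(VI)-grown cells, in libraries other than the control-grown ones described so far. The rule names no growth history and results of the whole series were known when the genes were proposed, so the tests here are not independent evidence of a fall. Pknox2 and Sox5 fell, and Foxp1, Trp63 and Sox9 were lower in every pair of libraries without passing the test. Pknox2 had the lowest fold change of all 14343 genes. It stood at 1.43 and 1.04 CPM under DMSO and 0.0343 and 0.120 CPM after B[a]P at passage 20, and at 5.84 and 11.9 CPM against 0.137 and 0.387 CPM at passage 25. The groups did not overlap, and only 1 to 9 counts were left after B[a]P. The pair of replicate 1 at passage 20 had 54 counts against 1, a ratio of 41.7 in CPM (exact 95% interval 7.17 to 1677, counting error alone).

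The fitted change of Pknox2 was -4.52 ± 0.62 (SE) on the log2 scale, 22.9-fold (edgeR adjusted p = 0.00457; 1.42e-05 with a replicate block). The call held in 7 of 8 fits that left out 1 library and was lost without replicate 1 of the Cr(VI)-grown B[a]P group at passage 20, the library with 1 count (edgeR adjusted p = 0.0562). Over these fits the log2 change ran from -5.07 to -4.20.

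Sox5 was already low in Cr(VI)-grown cells of passage 20, at 1.8 and 1.16 CPM under DMSO, and at 0.343 and 0.210 CPM after B[a]P. At passage 25 it stood at 3.49 and 4.02 CPM against 0.869 and 0.215 CPM. The treated libraries, with 5 to 38 counts, lay below the DMSO libraries at each passage. The fitted change was -2.57 ± 0.52 (SE), 5.96-fold (edgeR adjusted p = 0.0352; 6.75e-04 with a replicate block). This call rested on the full set of libraries: it was lost in 7 of 8 fits that left out 1 library and held without replicate 1 of the B[a]P group at passage 25, with log2 changes of -3.26 to -2.26 and edgeR adjusted p of 0.0280 to 0.232.

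Foxp1 stood at 9.35 and 10.9 CPM under DMSO and 2.03 and 2.10 CPM after B[a]P at passage 20, and at 6.54 and 3.96 CPM against 3.41 and 0.559 CPM at passage 25. Trp63 stood at 1.8 and 0.622 CPM against 0.275 and 0.150 CPM at passage 20, and at 8.16 and 4.93 CPM against 5.01 and 0.645 CPM at passage 25. At passage 20 the groups were apart for both genes. At passage 25 those of Foxp1 were apart by little (3.41 next to 3.96 CPM) and those of Trp63 overlapped, since replicate 1 after B[a]P lay above replicate 2 under DMSO. The changes were -1.84 ± 0.63 (SE) for Foxp1 (edgeR adjusted p = 0.275; 8.21e-04 with a replicate block) and -1.86 ± 0.63 for Trp63 (edgeR adjusted p = 0.272; 0.00578 with the block). Without the 6 replicate 2 libraries of passage 25, an alternative chosen after seeing the data, Foxp1 passed with -1.64.

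Sox9 showed its difference at passage 20, with 124.1 and 86.1 CPM under DMSO and 41.9 and 36.1 CPM after B[a]P. By passage 25 its values were 37.6 and 34.8 CPM against 35.3 and 26.9 CPM, where the groups overlapped. The change over both passages was -0.82 ± 0.19 (SE; edgeR adjusted p = 0.0665; 0.00169 with a replicate block). By passage it was -1.43 ± 0.27 and -0.22 ± 0.27, and the test of the difference between passages gave 1.21 ± 0.38 (unadjusted p = 0.00689; edgeR adjusted p = 1.00 over all genes; 0.432 with the block).

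Pknox1 was lower after B[a]P in each of the 4 pairs of Cr(VI)-grown libraries, from 14.6 and 11.4 CPM to 10.2 and 8.35 CPM at passage 20 and from 9.48 and 8.40 CPM to 7.06 and 5.89 CPM at passage 25. Foxp4 went from 158 and 189 CPM to 144 and 117 CPM, and from 287 and 459 CPM to 158 and 250 CPM. The groups of both genes were apart within each passage. Neither passed the test, with log2 differences of -0.48 ± 0.21 (SE; edgeR adjusted p = 0.505) and -0.64 ± 0.32 (edgeR adjusted p = 0.626), and Foxp4 passed with a replicate block (0.00766). Sox4 ranged from 26.1 to 129 CPM under DMSO and from 37.9 to 172 CPM after B[a]P, with a log2 difference of 0.27 ± 0.66 whose sign turned in 3 of 8 fits that left out 1 library.

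In this contrast 2 of the 8 tested members passed, both lower, beside 0.941% of all tested genes. With a replicate block 6 of 8 passed, all lower, beside 11.3%. The median log2 difference was -1.86 for the 5 chosen genes, -0.48 for the 3 tested relatives and 0.02 for all tested genes. The 5 were chosen for a fall with these results known, so their calls and their median are a description.

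**Figure D3:**
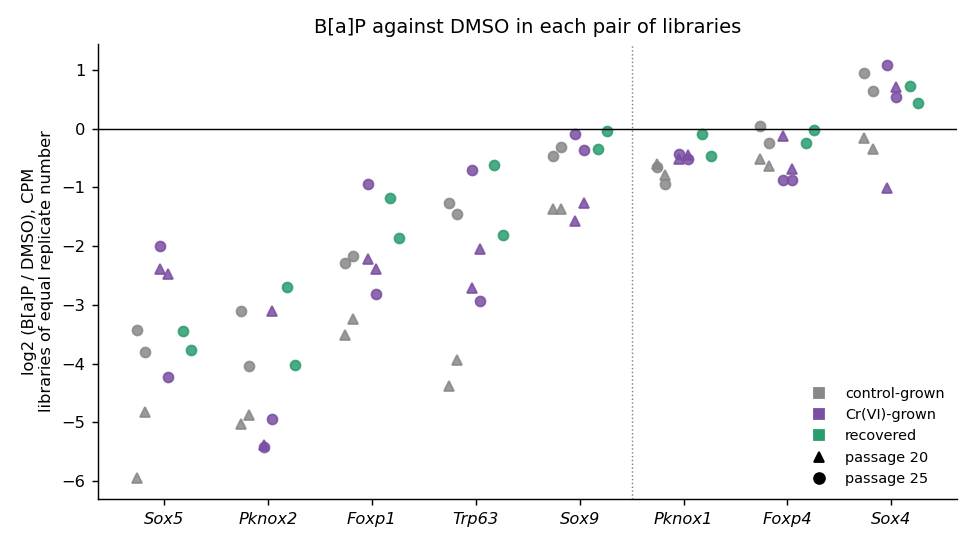
Log2 ratio of CPM after B[a]P to CPM under DMSO (vertical axis) for each pair of libraries of equal history, passage and replicate number, by gene (horizontal axis), with colour for growth history and shape for passage. All 10 pairs are below 0 for Sox5, Pknox2, Foxp1, Trp63, Sox9 and Pknox1, 9 of 10 for Foxp4 and 3 of 10 for Sox4. Pairs of passage 20 share a number only, since the numbers did not pair those libraries.

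Recovered cells, sampled at passage 25, also had less Sox5 and Pknox2 RNA after B[a]P, in values that did not overlap. Sox5 was at 11.5 and 4.08 CPM under DMSO and 1.06 and 0.299 CPM after B[a]P. Pknox2 was at 3.87 and 11.2 CPM against 0.595 and 0.684 CPM. Neither passed the unblocked test, with -3.49 ± 0.74 (SE; edgeR adjusted p = 0.184; 0.00283 with a replicate block) for Sox5 and -3.55 ± 0.79 (edgeR adjusted p = 0.235; 0.00123 with the block) for Pknox2. Foxp1 was at 14.3 and 3.72 CPM against 6.29 and 1.03 CPM, and Trp63 at 5.62 and 3.59 CPM against 3.69 and 1.03 CPM, and for both the replicate 1 library after B[a]P lay above the replicate 2 library under DMSO. Sox9 was at 54.1 and 41.0 CPM against 42.7 and 39.9 CPM, again with overlap.

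Fitted differences of Foxp1, Trp63 and Sox9 were -1.29 ± 0.87 (SE), -0.96 ± 0.83 and -0.20 ± 0.27, and each had an adjusted p of 1.00 in edgeR. The relatives Pknox1 (10.98 and 9.73 CPM against 10.3 and 7.01 CPM), Foxp4 (195 and 352 CPM against 165 and 346 CPM) and Sox4 (118.3 and 31.0 CPM against 195 and 41.9 CPM) overlapped between treatments. In recovered cells 0 of 8 members passed, beside 0.0558% of tested genes, and 2 of 8 with a replicate block, beside 1.5%. At an unadjusted p under 0.05, edgeR gave 526 of 14343 genes. DESeq2, by its adjusted p, called 2 of the 8 members, Sox5 and Pknox2. Its total over all genes is given in the last section. The test of the B[a]P effect in recovered against Cr(VI)-grown cells at passage 25 passed for 0 members, with 1.58 ± 1.07 (SE) for Pknox2 and -0.76 ± 0.97 for Sox5.

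Before any B[a]P was given, Sox5 was lower in Cr(VI)-grown than in control-grown cells, a difference that passed the test with a replicate block and not without it. At passage 20 the DMSO libraries had 11.6 and 10.3 CPM in control-grown and 1.8 and 1.16 CPM in Cr(VI)-grown cells, with no overlap. At passage 25 they had 6.41 and 4.97 CPM against 3.49 and 4.02 CPM. Over both passages the difference was -1.74 ± 0.48 (SE; edgeR adjusted p = 0.895; 0.0251 with a replicate block). At passage 20 alone it was -2.88 ± 0.71 (edgeR adjusted p = 0.523; 0.0117 with the block) and at passage 25 -0.60 ± 0.67.

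Pknox2 and Trp63 were likewise lower in the Cr(VI)-grown DMSO libraries of passage 20. Pknox2 had 4.38 and 4.54 CPM in control-grown cells against 1.43 and 1.04 CPM, a difference of -1.84 ± 0.74 (SE; edgeR adjusted p = 0.713; 0.0307 with a replicate block), whereas at passage 25 it was 0.67 ± 0.71 in the other direction. Trp63 had 3.35 and 3.16 CPM against 1.8 and 0.622 CPM at passage 20 and 15.9 and 8.18 CPM against 8.16 and 4.93 CPM at passage 25. Its difference over both passages was -1.14 ± 0.59 (edgeR adjusted p = 0.895; 0.0569 with the block). Foxp1 (-0.50 ± 0.61), Sox9 (-0.04 ± 0.19), Sox4 (-0.18 ± 0.66), Pknox1 (-0.23 ± 0.21) and Foxp4 (0.31 ± 0.32) had smaller differences. This contrast shares its control DMSO libraries with the B[a]P comparison in control-grown cells, and its Cr(VI) DMSO libraries with that in Cr(VI)-grown cells. Results of both comparisons were known when the members were chosen.

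After growth with Cr(VI), 0 of 8 members passed under DMSO, beside 0.0% of tested genes, and 1, Sox5, with a replicate block, beside 3.7%, a difference that was among the results known when the gene was proposed. Of genes over 316 kb, the span class of Sox5, 19.1% were lower with the block. edgeR gave 685 genes at an unadjusted p under 0.05, and DESeq2 called 14 genes and 0 members. Between growth histories after B[a]P, 0 of 8 members passed, with and without a block, beside 0.0% and 0.0% of genes (523 at an unadjusted p under 0.05 without it and 1 called by DESeq2). Member differences there ran from -0.74 ± 0.64 (SE) for Pknox2 to 0.46 ± 0.62 for Foxp1, and Sox5 was at 0.11 ± 0.52. The B[a]P effect on Sox5 in Cr(VI)-grown cells minus that in control-grown cells was 1.85 ± 0.71 (SE). This value is given as a description, because Sox5 was chosen for a fall after B[a]P.

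Recovered cells under DMSO were set against Cr(VI)-grown cells of the same passage. Sox5 stood at 11.5 and 4.08 CPM against 3.49 and 4.02 CPM, a difference of 1.06 ± 0.67 (SE) that came from the replicate 1 libraries. Trp63 had the lowest value of the 8, -0.51 ± 0.82, and 0 of 8 members passed, beside 0.0% of tested genes, and 0 with a replicate block, also beside 0.0% (edgeR, 195 and 1846 genes at an unadjusted p under 0.05, and 0 called by DESeq2). Against control-grown cells of passage 25, Trp63 in recovered cells was at 5.62 and 3.59 CPM against 15.9 and 8.18 CPM, -1.39 ± 0.83, without passing the test.

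Within a group the members kept a similar order of level per kilobase of exon. In control-grown cells of passage 20 under DMSO, Foxp4 (32.0 CPM per kb), Sox9 (23.3) and Sox4 (21.9) led, followed by Pknox1 (2.00), Foxp1 (1.02), Sox5 (0.762), Pknox2 (0.431) and Trp63 (0.388). After B[a]P at that passage the first 4 were Foxp4 (21.5), Sox4 (18.4), Sox9 (9.05) and Pknox1 (1.24), and Foxp1 (0.0983), Trp63 (0.0219), Sox5 (0.0191) and Pknox2 (0.0140) followed. Under DMSO the 2 libraries of each gene were apart from those of its neighbour in this order, whereas after B[a]P the values of Sox5 overlapped those of both Trp63 and Pknox2. Members also differed by passage. Trp63 was at 3.25 ± 0.14 CPM (SD, n = 2) under DMSO in control-grown cells of passage 20 and 12.04 ± 5.5 CPM at passage 25. Sox9 went the other way, from 96.5 ± 3.8 CPM to 41.9 ± 0.15 CPM. Passage and library set cannot be told apart here, and these differences have no test.

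Of the wider SOX family, 5 of 20 listed genes passed the count filter, and Sox5 was the 1 that fell in Cr(VI)-grown cells after B[a]P. With a replicate block 3 of 5 fell, Sox5, Sox9 and Sox12, beside 11.3% of all tested genes called either way. Sox12, a SoxC relative of SOX4, had a log2 difference of -0.87 ± 0.26 (SE; edgeR adjusted p = 0.189; 0.00134 with the block). The median of the 5 was -0.82, the value of Sox9 itself. Sox5 and Sox9 were chosen for a fall, so nothing about the family is read from this median.

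Of 12 tested TALE homeobox genes Pknox2 was the 1 that fell, and the median was -0.41. With a replicate block 3 of 12 fell, among them Pknox2 and Pbx3, and 1 rose, Meis3, beside 11.3% of all tested genes called either way. Pbx3, which encodes a partner of PKNOX proteins on DNA, had -0.85 ± 0.33 (SE; edgeR adjusted p = 0.380; 0.0237 with the block). Pknox1, the closest relative of Pknox2, did not pass either fit in these cells.

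Of 24 tested forkhead genes 0 passed in Cr(VI)-grown cells (edgeR, median -0.09). With a replicate block 3 of 24 fell (Foxn3, Foxp1 and Foxp4) and 3 rose (Foxj2, Foxo4 and Foxq1), beside 11.3% of all tested genes called either way. Foxn3, a checkpoint-linked forkhead repressor, had -1.45 ± 0.72 (SE; edgeR adjusted p = 0.635; 0.00925 with the block). Among 10 FOXP corepressor genes, which encode subunits of the NuRD complex and CTBP proteins, 0 passed and the median was 0.00, and with the block Mta3 fell (-0.60 ± 0.34), 1 of 10 beside 11.3% of all tested genes.

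Of 13 tested genes of the p53 family and its regulators 0 passed (edgeR, median 0.04). With a replicate block 2 of 13 passed, Trp63, which fell, and Mdm2, which rose, beside 11.3% of all tested genes. Mdm2, a p53 target that encodes the ligase of p53, had 1.02 ± 0.86 (SE; edgeR adjusted p = 0.981; 0.0226 with the block). Trp53 itself ran from 173 to 483 CPM under DMSO and from 147 to 487 CPM after B[a]P. Among 13 tested p63 targets 0 passed (median 0.13). With the block Fgfr2, a growth factor receptor gene, fell (-1.13 ± 0.59) and Dsp, which encodes desmoplakin, rose (0.78 ± 0.43), 2 of 13. Among 7 tested SOX9 targets 0 passed (median 0.65), and with the block the collagen gene Col11a2 rose (1.23 ± 0.48), 1 of 7. These shares lie near the same 11.3%, and nothing particular to the lists is read from them.

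In recovered cells 0 genes of these 7 lists passed after B[a]P in edgeR. Those that fell with a replicate block included Sox5, Sox12 and Pknox2, beside 1.5% of all tested genes called either way. After growth with Cr(VI) under DMSO 0 passed as well. With the block Sox5 fell and Pbx4, Foxd4, Ppp1r13l, Col11a2, Amh and Sfn rose, beside 3.7% of all tested genes called either way. Amh, a SOX9 target that encodes anti-Müllerian hormone, had 1.61 ± 0.42 (SE; edgeR adjusted p = 0.895; 0.0411 with the block) while Sox9 itself had -0.04 ± 0.19. The other markers of liver cell types were also measured beside these results. In Cr(VI)-grown cells after B[a]P 0 of 8 tested hepatocyte, 0 of 5 stellate and fibroblast, 0 of 4 macrophage, 0 of 1 endothelial, 0 of 3 cholangiocyte and 0 of 4 basal squamous markers passed. With a replicate block, and with log2 differences and SEs given from the fit without it, the macrophage marker Cd68 rose (0.95 ± 0.21, edgeR adjusted p = 0.00298 with the block), and the stromal marker Pdgfrb (-0.65 ± 0.40, 0.00322) and the duct keratin gene Krt19 (-1.26 ± 0.79, 0.00463) fell. Cd68 also rose with the block in recovered cells after B[a]P (1.32 ± 0.30, 0.0182) and after growth with Cr(VI) under DMSO (0.77 ± 0.21, 0.0406). Over the libraries of all 3 growth histories, summed levels under DMSO and after B[a]P were 23.0 to 55.7 and 28.5 to 63.5 CPM for the macrophage list, 410 to 1520 and 614 to 1603 CPM for the stellate and fibroblast list and 556 to 2023 and 410 to 1694 CPM for the cholangiocyte list. Ptprc, Col1a2, Lum, Epcam and Cftr of these 3 lists had fewer than 10 counts in every library, and so had Cdh5, Kdr and Tek of endothelium. The other members of the 3 lists carried the sums, and whether such cell types were present was not tested. The part of these markers in the members' values was not tested.

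The longest genes had lower median differences, after B[a]P and also after growth with Cr(VI) under DMSO, and 4 of the 5 chosen genes are long. Among the tested genes 14296 had a RefSeq span. In Cr(VI)-grown cells the median log2 difference was -0.03 for 4110 genes under 10 kb, -0.29 for 1335 genes of 100 to 316 kb and -0.67 for 251 genes over 316 kb, and 0.219%, 2.85% and 3.98% of these classes were called lower. With a replicate block the shares were 3.58%, 20.7% and 37.5%, and 4 of the 6 members called with the block (Sox5, Foxp1, Pknox2 and Trp63) belong to the last 2 classes. After B[a]P in control-grown cells the medians of the same 3 classes were 0.13, -0.54 and -1.12. There 0.316%, 7.04% and 17.9% were called lower, and 3.58%, 38.7% and 57.8% with the block. In recovered cells the medians were 0.01, -0.18 and -0.66, and 0.219%, 4.04% and 9.96% were lower with the block. For Cr(VI) growth under DMSO, before any B[a]P, the medians were 0.30, -0.42 and -0.54, and 0.146%, 7.34% and 19.1% were lower with the block. After B[a]P in Cr(VI)-grown cells Sox5 ranked 6th from the lowest among the 251 longest genes, with a difference of -1.91 on the log2 scale from the median of its class. Foxp1 ranked 23rd in the same class, at -1.17 from that median. Pknox2 was the lowest of 1335 genes in its class, at -4.23 from the median, and Trp63 ranked 22nd, at -1.57. Sox9, at 5.5 kb, ranked 160th of 4110, at -0.79. Pknox1 and Foxp4, in the class of 32 to 100 kb, ranked 352nd and 188th of 3615. Low ranks of the 5 chosen genes follow in part from their choice for a fall, so the ranks are a description. Span was not tested as a reason for any of these values.

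**Figure D4:**
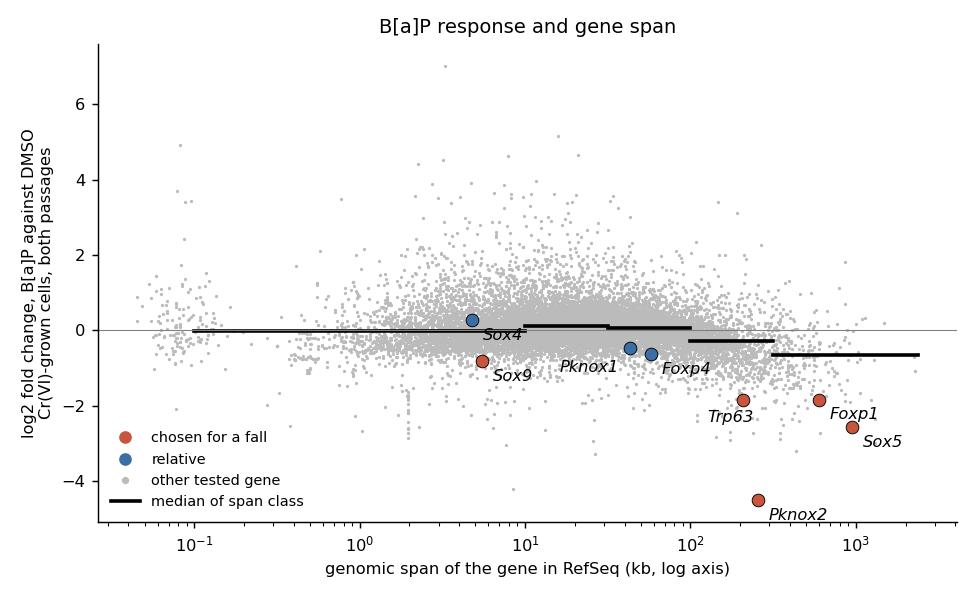
Log2 fold change of B[a]P against DMSO in Cr(VI)-grown cells over both passages (vertical axis) against the RefSeq span of each tested gene in kb (horizontal log axis), with genes chosen for a fall in red, relatives in blue, other genes in grey and the median of each span class as a black line. The class medians are -0.03 under 10 kb and -0.67 over 316 kb, and Sox5, Pknox2, Foxp1 and Trp63 lie below the lines of their classes.

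Across the 20 libraries, after the mean of each of 3 library sets was taken out, log2 CPM of the chosen genes moved together. Pearson's r was 0.94 between Sox5 and Pknox2, 0.93 between Sox5 and Foxp1, 0.86 between Sox5 and Trp63 and 0.74 between Sox5 and Sox9. Pknox1 also followed Sox5 (0.85), while Sox4 did not (-0.12). These are descriptions without a test, since the 20 libraries differ by the B[a]P treatment, and the genes were chosen for a fall after it. By the same measure the tested genes most like Sox5 included Prkce (0.981), Ctif (0.980), Fbxl17 (0.978) and Magi1 (0.976). The 5 most like Pknox2 were Ssbp3 (0.980), Rftn1 (0.978), Fbxl17 (0.976), BC052040 (0.968) and Osbpl10 (0.967). For Foxp1 they were Nrf1 (0.962), Tcf7l2 (0.959), Ppargc1b (0.958), Apbb2 (0.958) and Mical3 (0.954), and for Trp63 Nhs (0.964), Bmp5 (0.964), Mrvi1 (0.958), Tcf4 (0.957) and Mical2 (0.955). For Sox9 they were Plekhg3 (0.967), Nol4l (0.952), Rere (0.951), Tfap4 (0.945) and Axin2 (0.931). Fbxl17 was the one gene in 2 of these lists.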

How the data were processed

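Hepa-1 RNA was sequenced on Illumina machines, per the labels. The authors deposited raw counts per Entrez gene ID for the 20 libraries. Tools named in the submitters' processing notes are bcl2fastq, CASAVA 1.8, TopHat and DESeq, with build mm10. The read counter, annotation and strandedness were not given in the sources used here, so antisense reads cannot be told apart. Of the IDs, 23275 matched the RefSeq table (GRCm38.p6). edgeR 4.0.16 in R 4.3.3 fitted quasi-likelihood models with TMM scaling and 1 mean per group to all 20 libraries (filterByExpr, two-sided, Benjamini-Hochberg over 14343 genes, threshold 0.05). The fits were checked on simulated counts with less spread than these data and no replicate effect, so that check gives no error rate here. Comparisons of both passages average the 2. CPM use TMM-scaled totals. Members and lists were chosen with earlier results of these data known. Named genes are the members, listed genes past a threshold, and the 5 most correlated per chosen gene, of which some items are not reported here. Replicate differences of group pairs correlated at 0.81 to 0.92 over the 15 pairs of groups at passage 25, where the numbers paired the libraries, and at 0 to 0.59 over 6 at passage 20. Alternatives included a replicate block, DESeq2 1.42.0, other scaling, no filter, library set as batch and leaving out libraries. At passage 25 the sample titles carry 27, and the passage label was used.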

Additional observations from a re-analysis of the deposited data

How the results depend on the processing

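Of 352 alternative values for members, 312 kept direction and side of the threshold, 18 newly passed, 8 lost the call and 14 changed sign. These values cover the 8 tested members after B[a]P in Cr(VI)-grown and recovered cells and for Cr(VI) growth under DMSO. For Cr(VI) growth after B[a]P they cover Pknox2 and Foxp1 alone, and for recovered against Cr(VI)-grown cells under DMSO Sox5 and Trp63 alone. Those were the lowest and highest members there, and sign changes of the other members were not counted. After B[a]P in control-grown cells 316 genes passed, against 2399 with a replicate block, 773 with DESeq2, 178 with no count filter, 2199 with library set as batch, 1052 without the 6 replicate 2 libraries of passage 25 (added after seeing the data) and 68 to 150 when 1 library was left out. In Cr(VI)-grown cells the 135 became 1620, 473, 70, 1501, 772 and 27 to 90 in that order, and the 2 members past the threshold became 6 with the block, 6 with library set as batch and 0 to 2 when 1 library was left out. In recovered cells the 8 genes became 215 with the block, 104 with DESeq2, 193 with library set as batch, 4 without the 6 libraries and 0 to 5 when 1 library was left out, and the 0 members became 2 with each of the first 3. For Cr(VI) growth under DMSO the 0 genes became 531 with the block, 14 with DESeq2 and 76 with library set as batch, and the 0 members became 1 with the block and with library set as batch. After B[a]P, DESeq2 called 1 gene between the growth histories. Signs changed when 1 library was left out: after B[a]P in Cr(VI)-grown cells Sox4 ran from -0.47 to 0.89, in recovered cells Sox4 from -0.84 to 1.93, Foxp4 from -0.73 to 0.39 and Sox9 from -0.39 to 0.01, for Cr(VI) growth under DMSO Sox4 from -0.81 to 0.15, Pknox2 from -0.94 to 0.09 and Sox9 from -0.19 to 0.07, and for Cr(VI) growth after B[a]P Foxp1 from -0.46 to 0.84. Without the 6 libraries Sox9 was 0.02 for Cr(VI) growth under DMSO. None of these had passed the test, and the cause was not tested. Depth limits Pknox2 and Sox5 after B[a]P (1 to 19 and 5 to 38 counts), Sox6 and Trp73.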
